A study of Mus musculus with 9 samples.

Results

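Transcripts of 10 genes of the Bcl2 family, which set the balance between survival and death of a cell at the mitochondrion, were followed through sorted mouse thymocytes with and without the chromatin gene Brd1. The 10 genes were chosen for their role in the family: Bcl2, Bcl2l1, Bcl2a1d and Mcl1 (survival), Bax and Bak1 (pore-forming effectors), and Bcl2l11, Bid, Bbc3 and Pmaip1 (BH3-only death genes). They are 10 of 20258 named genes on the array, were read by 12 of its 26715 named probes, and all 10 entered the tests. Thymocytes were sorted by CD4, CD8 and TCRβ, the β chain of the T cell receptor, and each of the 9 groups was hybridised to 1 one-colour Agilent array, so no group has a replicate. All mice were C57BL/6 and carried Tie2-Cre, a Cre recombinase driven by a promoter active in endothelial and blood-forming cells; controls were Brd1+/+ and conditional knockouts (CKO) were Brd1flox/flox. Cells positive for both CD4 and CD8 (DP), CD4 single-positive (CD4SP) cells and CD8 single-positive (CD8SP) cells came from both genotypes at 8 weeks. CD4SP cells lacking surface TCRβ came from the CKO alone, also at 8 weeks, and have no control array. CD8SP cells of both genotypes were also taken at 14 weeks from mice crossed with OT-I (spelled OT-l in the labels), a transgenic T cell receptor that recognises antigen on MHC class I. The labels do not say whether an array held 1 animal or a pool.

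Bcl2, Bcl-xL (the product of Bcl2l1), A1 (the product of the Bcl2a1 genes) and Mcl1 bind and hold in check the death-promoting members. When BH3-only proteins such as Bim (Bcl2l11), Bid, Puma (Bbc3) and Noxa (Pmaip1) outweigh them, Bax and Bak1 form pores in the outer mitochondrial membrane and caspases are activated. In the thymus, DP cells are known for depending on Bcl-xL, whose gene is a target of the nuclear receptor RORγt, and for low Bcl2, while cells that pass positive selection regain Bcl2 together with the interleukin-7 receptor, and Bim and Puma remove cells that fail selection.

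Levels here are log2 signals relative to the 75th percentile of the array, so a level of 0 is the brightness of that percentile and 1 unit is a 2-fold difference; since probes differ in brightness, levels are compared between arrays and never between genes. Values given in twos are those of the control array and then the CKO array of a population. Between 39.0% and 45.9% of probes per array were well above background and none was saturated. The co-receptors followed the sort: Cd8a lay between 4.60 and 5.46 on the DP, CD8SP and OT-I arrays and at -1.23 and -2.11 on the CD4SP arrays. The TCRβ-negative array resembled the DP arrays in the 8 fixed DP-stage markers, with Rag1 at 8.07 in it and at 8.07 and 8.09 in the DP arrays, against 0.62 and 2.88 in the ordinary CD4SP arrays; its Cd8a stood at -0.32. Both CD8SP arrays and the OT-I control array held DP-stage and cell-cycle transcripts too, with a summed DP-stage level (log2) of 9.78, 8.91 and 9.17 and a summed proliferation level of 8.47, 7.17 and 8.73. The OT-I CKO array stood at 6.38 and 5.15, near the CD4SP arrays (6.37 and 7.14 for DP-stage genes, 5.07 and 5.24 for proliferation genes), and its Rag1 read -1.21. The Brd1 probe, detected above background throughout, was higher in the CKO array of 4 of 4 pairs (-1.37 to -0.79 in controls, -0.98 to -0.33 in CKO, genotype estimate 0.45, SE 0.19, limma adjusted p = 0.474); its place relative to the deleted part is not known here, so it checks nothing. The CD8SP CKO array and both OT-I arrays were on slide 2 and the other 6 arrays on slide 1. In these bulk samples, fewer cells of a type and less RNA per cell cannot be told apart.

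Bcl2 and Bcl2a1d were lower, and Bcl2l1 higher, in DP and TCRβ-negative cells than in the other populations. The promoters of these 3 members, the ones called in a population contrast below (limma adjusted p below 0.05), are shown. Each is the RefSeq window (GRCm38.p6) from 250 bases before to 50 bases after an annotated start, printed on the strand of the gene. Capitals mark matches, on either strand and overlaps included, to 3 short motifs: GGGNNNNNCC (NF-κB type), AGGTCA (the ROR half-site) and TGTTTAC (FOXO type). Of all 32851 windows of that length, 50.8% held the first, 16.3% the second and 3.65% the third. Bcl2 lies at chr1:106714241-106714540 (minus strand), Bcl2a1d at chr9:88731801-88732100 (minus), Bcl2a1c, its near copy and the other Bcl2a1 gene named on the array, at chr9:114329885-114330184 (plus), and the 1 of 3 Bcl2l1 windows with a ROR half-site at chr2:152828440-152828739 (minus).
Bcl2: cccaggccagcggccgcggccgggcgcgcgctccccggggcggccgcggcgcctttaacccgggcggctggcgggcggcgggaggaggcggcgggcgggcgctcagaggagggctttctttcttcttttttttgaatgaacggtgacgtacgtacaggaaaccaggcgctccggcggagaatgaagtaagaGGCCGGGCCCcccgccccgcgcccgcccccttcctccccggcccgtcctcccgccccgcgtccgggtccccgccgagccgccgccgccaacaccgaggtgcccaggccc
Bcl2a1d: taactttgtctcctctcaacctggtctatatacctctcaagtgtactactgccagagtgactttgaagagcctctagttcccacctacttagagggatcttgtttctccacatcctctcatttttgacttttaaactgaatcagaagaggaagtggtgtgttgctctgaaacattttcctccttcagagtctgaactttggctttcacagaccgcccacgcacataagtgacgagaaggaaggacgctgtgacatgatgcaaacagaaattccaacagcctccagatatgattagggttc
Bcl2a1c: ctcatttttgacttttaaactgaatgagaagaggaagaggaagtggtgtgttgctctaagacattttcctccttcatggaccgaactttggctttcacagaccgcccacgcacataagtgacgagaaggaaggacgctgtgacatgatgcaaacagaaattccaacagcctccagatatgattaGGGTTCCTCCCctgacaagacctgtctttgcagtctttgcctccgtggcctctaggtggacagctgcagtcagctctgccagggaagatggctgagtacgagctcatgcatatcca
Bcl2l1: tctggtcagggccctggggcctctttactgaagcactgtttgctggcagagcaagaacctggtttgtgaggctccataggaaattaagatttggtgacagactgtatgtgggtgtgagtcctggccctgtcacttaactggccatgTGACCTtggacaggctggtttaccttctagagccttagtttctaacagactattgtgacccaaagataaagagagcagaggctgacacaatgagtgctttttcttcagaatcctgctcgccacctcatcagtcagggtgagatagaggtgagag
The Bcl2 window held 1 NF-κB-type match, the Bcl2a1d window none of the 3 motifs, the Bcl2a1c window 2 overlapping NF-κB-type matches, and the Bcl2l1 window 1 ROR half-site and no NF-κB-type match. A second Bcl2l1 window held 2 NF-κB-type matches and the third held none of the 3 motifs. The Bcl2a1d window ends inside the stretch that corresponds to the capitals of Bcl2a1c. Its lack of an NF-κB-type match therefore cannot show a difference between these copies. The Bcl2a1d window was identical to that of Bcl2a1a at 288 of 300 bases in a global alignment (96%) and to that of Bcl2a1c at 177 (59%). The Bcl2a1c window begins partway into the matching stretch of the Bcl2a1d window. The 59% therefore counts this offset as difference and does not measure how far the shared bases diverge. These genes are near-identical copies, so the signal of a Bcl2a1 probe may include transcripts of other copies, and the level of Bcl2a1d is uncertain in that sense. Among the other members with a window, a FOXO-type match was present in 1 of 2 Bcl2l11 windows and in 1 of 3 Bbc3 windows.

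Bcl2 was low in DP cells and high in CD4SP cells. Its level was 2.07 in the control and 1.95 in the CKO array of DP cells, and 4.49 and 4.50 in those of CD4SP cells. It was 3.04 and 3.28 for CD8SP, 2.66 and 3.60 for OT-I, and 1.23 in TCRβ-negative CKO cells. All 6 single-positive arrays of cells sorted without the TCRβ-negative gate lay above both DP arrays, and the TCRβ-negative array lay below all others. How many of all features order the arrays in such a way was not counted, here or for the genes below.

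Bcl2a1d, which encodes the short-lived survival protein A1, had the widest range of the 10 genes. Its level was 1.30 and 1.79 for DP, 5.74 and 5.07 for CD4SP and 4.51 and 5.23 for CD8SP. It was 2.74 and 4.16 for OT-I and 0.60 in TCRβ-negative cells. As with Bcl2, the DP and TCRβ-negative arrays were the lowest. Bcl2a1c ran parallel at a dimmer signal, with DP control at -2.69 and CD4SP CKO at 1.06, and was not well above background in TCRβ-negative cells (-3.87).

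Bcl2l1, the Bcl-xL gene, was highest in DP and TCRβ-negative cells, where Bcl2 and Bcl2a1d were lowest. On its brighter probe the level was 7.52 and 7.47 for DP and 7.38 in TCRβ-negative cells. It was 5.43 and 5.33 for CD4SP, 5.54 and 5.11 for CD8SP, and 5.29 and 4.10 for OT-I. The 2 DP arrays and the TCRβ-negative array lay above the other 6, as they did for Rag1. The share of all features with this split was not counted. The dimmer probe showed the same separation, at 1.79, 1.51 and 1.42 in those 3 arrays and between -2.10 and -0.84 in the other 6.

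Mcl1, whose product is a survival protein of rapid turnover, varied least of the survival genes, from 5.55 in CD8SP control to 6.45 in CD4SP control cells. Its second probe ranged from 3.60 to 4.47. In OT-I cells the brighter probe read 5.73 in control and 6.33 in CKO.

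**Figure D1:**
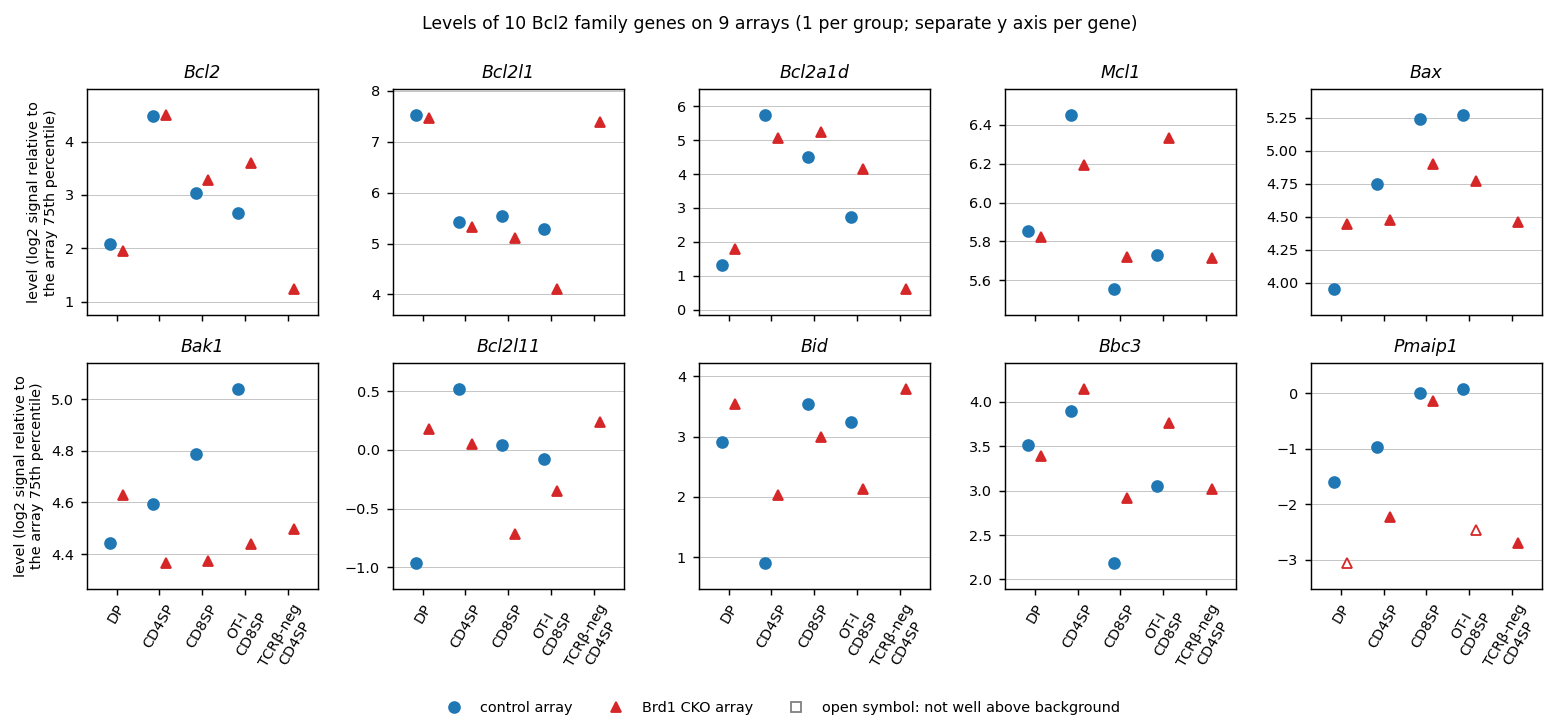
Level of each of the 10 genes (log2 signal relative to the array 75th percentile, own y axis per gene) in 5 thymocyte populations, with control arrays as circles and Brd1 CKO arrays as triangles, 1 array each; open symbols mark arrays not well above background. Bcl2 and Bcl2a1d were low in DP and TCRβ-negative cells, where Bcl2l1 was high (7.38 to 7.52), and Bak1 stayed between 4.37 and 5.04.

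The effectors Bax and Bak1, which form the mitochondrial pore, were well above background throughout. Bax ranged from 3.95 (DP control) to 5.27 (OT-I control), and Bak1 from 4.37 (CD4SP CKO) to 5.04 (OT-I control). The Bax range of 1.32 (2.49-fold) was larger than that of 46.8% of the genes tested and the Bak1 range of 0.68 larger than that of 9.28%, whereas the range of Bcl2a1d (5.14) was larger than that of 97.0% of them. The median range of the 10 genes was 2.43, beside 1.38 over all genes tested.

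Of the BH3-only genes, Bid, which links death receptors to the mitochondrion, was lowest in CD4SP cells. Its level was 0.91 and 2.04 for CD4SP and 2.91 and 3.54 for DP. It was 3.54 and 2.99 for CD8SP, 3.24 and 2.14 for OT-I and 3.80 in TCRβ-negative cells. The CD4SP control array lay well below the other 8, and the CD4SP CKO array was close to the OT-I CKO array. Bbc3, which encodes the p53 target Puma, was 3.52 and 3.40 for DP, 3.90 and 4.15 for CD4SP, 2.19 and 2.92 for CD8SP, 3.05 and 3.77 for OT-I and 3.02 in TCRβ-negative cells. Both CD4SP arrays were above the other 7 for Bbc3. Bcl2l11, the Bim gene, was lowest in the DP control array (-0.96) and highest in the CD4SP control array (0.52).

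Pmaip1, which encodes Noxa, an antagonist of Mcl1 and A1, was well above background on 7 of 9 arrays. Its level was -1.59 in DP control cells and -3.05, not well above background, in DP CKO cells. It was -0.97 and -2.23 for CD4SP, 0.01 and -0.15 for CD8SP, and 0.08 and -2.47 for OT-I, where the CKO array was again not well above background; TCRβ-negative cells read -2.69. Within each of the 4 pairs the CKO array was lower.

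Population differences were tested with limma in 1 fit over all 9 arrays with population and genotype as additive terms; a gene was called at an adjusted p below 0.05. With 1 array per group, the error is the spread of the genotype difference between populations, so p-values measure only that spread. From DP to CD4SP cells, 3 of the 10 members were called, against 3.11% of the 20284 features tested. Bcl2 rose by 2.48 (SE 0.34, 5.58-fold, adjusted p = 0.0260) and Bcl2a1d by 3.86 (SE 0.50, 14.5-fold, adjusted p = 0.0232), and Bcl2l1 fell by 2.12 (SE 0.36, 4.34-fold, adjusted p = 0.0421). Without the CD8SP pair of arrays, which is the same fit for this contrast as one with slide as a block, Bcl2a1d alone was called (Bcl2 adjusted p = 0.0586, Bcl2l1 0.0870), and with scaling to the probes detected on all arrays Bcl2 was at 0.0512. Bid was lower in CD4SP than in DP cells by an estimate of -1.76 (SE 0.58), which did not pass (adjusted p = 0.196); on the slide 1 arrays alone it did (-1.76, adjusted p = 0.0207).

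From DP to CD8SP cells, 2 of 10 were called, against 3.46% of all features. Bcl2a1d rose by 3.32 (SE 0.50, 10.0-fold, adjusted p = 0.0289) and Bcl2l1 fell by 2.17 (SE 0.36, 4.51-fold, adjusted p = 0.0375). Bcl2 was higher by an estimate of 1.15 (SE 0.34), and Pmaip1 by one of 2.25 (SE 0.55), without passing (adjusted p = 0.131 and 0.0944). Both calls were lost with slide as a block (adjusted p = 0.196 for Bcl2a1d and 0.225 for Bcl2l1) with little change in size (3.17 and -2.18). No feature of the 20284 was called for this contrast in that fit. Bcl2a1d was also lost under quantile normalization (0.0559) and scaling to detected probes (0.0615), and Bcl2l1 on slide 1 alone (0.0634) and without the CD4SP pair (0.0712), while Pmaip1 passed without the OT-I pair (0.0454).

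From DP to OT-I CD8SP cells, Bcl2l1 alone was called, 1 of 10 against 3.33% of all features. It fell by 2.80 (SE 0.36, 6.96-fold, adjusted p = 0.0206); its dimmer probe fell by 3.57 (SE 0.35, adjusted p = 0.0107). The OT-I arrays were all on slide 2 and the DP arrays on slide 1. With slide in the fit as a block, the estimate was -2.82 with an adjusted p of 0.614, and no feature was called. Estimates for Bcl2a1d (1.91, SE 0.50) and Bcl2 (1.12, SE 0.34) had the same sign as in the other single-positive populations and did not pass (adjusted p = 0.113 and 0.147).

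Between the single-positive populations no member was called: 0 of 10 for CD8SP against CD4SP (0.389% of all features) and 0 of 10 for OT-I CD8SP against ordinary CD8SP cells (0.237%), a comparison in which age, the transgene and in part the slide cannot be told apart. For CD8SP against CD4SP cells 4 members had an unadjusted limma p below 0.05, as did 2691 of the 20284 features: Bbc3 (-1.47, adjusted p = 0.204), Bcl2 (-1.33, adjusted p = 0.266), Bid (1.79, adjusted p = 0.326) and Pmaip1 (1.53, adjusted p = 0.350), of which Bid passed on slide 1 alone (2.51, adjusted p = 0.0307). In the OT-I comparison 2 members did, beside 1406 of the 20284 features: Bcl2a1d (-1.42, adjusted p = 0.626) and Bbc3 (0.86, adjusted p = 0.665).

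The TCRβ-negative array differed from the ordinary CD4SP cells in 2 of the 4 survival genes, Bcl2 and Bcl2a1d. Of the 10 members, 2 were called, against 1.41% of all features: Bcl2 was lower by an estimate of -3.40 (SE 0.44, 10.5-fold, adjusted p = 0.0332) and Bcl2a1d by one of -5.05 (SE 0.64, 33.1-fold, adjusted p = 0.0327). Bcl2l1 was 2.22 higher without passing (SE 0.46, adjusted p = 0.0923); its dimmer probe gave 2.54 (adjusted p = 0.0643). Bid, at 2.31 (SE 0.73, adjusted p = 0.209), Bbc3, at -1.20 (SE 0.41, adjusted p = 0.231), and Mcl1, at -0.67 (adjusted p = 0.463), did not pass either. An unadjusted limma p below 0.05 was found for 5 members and for 3392 of the 20284 features. Both calls were lost with slide as a block or without the CD8SP pair (adjusted p = 0.0833 for Bcl2 and 0.0733 for Bcl2a1d), without the DP pair (0.0836 and 0.0942), with scaling to detected probes (0.0640 and 0.0588) and under quantile normalization (0.0578 and 0.0577), each with the same sign, whereas Bcl2l1 passed under 4 alternatives, such as slide 1 alone (2.04, adjusted p = 0.0381). No feature at all was called here with slide as a block, without the CD8SP or the DP pair, or under quantile normalization. This contrast rests on 1 array and, with no control, borrows the genotype effect fitted in the other 4. Against DP cells, 0 of 10 members and 0% of all features were called by limma, and 0 members but 334 features had an unadjusted p below 0.05. Beside the member levels, summed DP-stage markers were at 10.93 in the TCRβ-negative array and at 10.76 and 10.93 for DP, and mature-thymocyte markers at 5.86, 5.40 and 6.14; the part of stage in the member values was not tested.

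**Figure D2:**
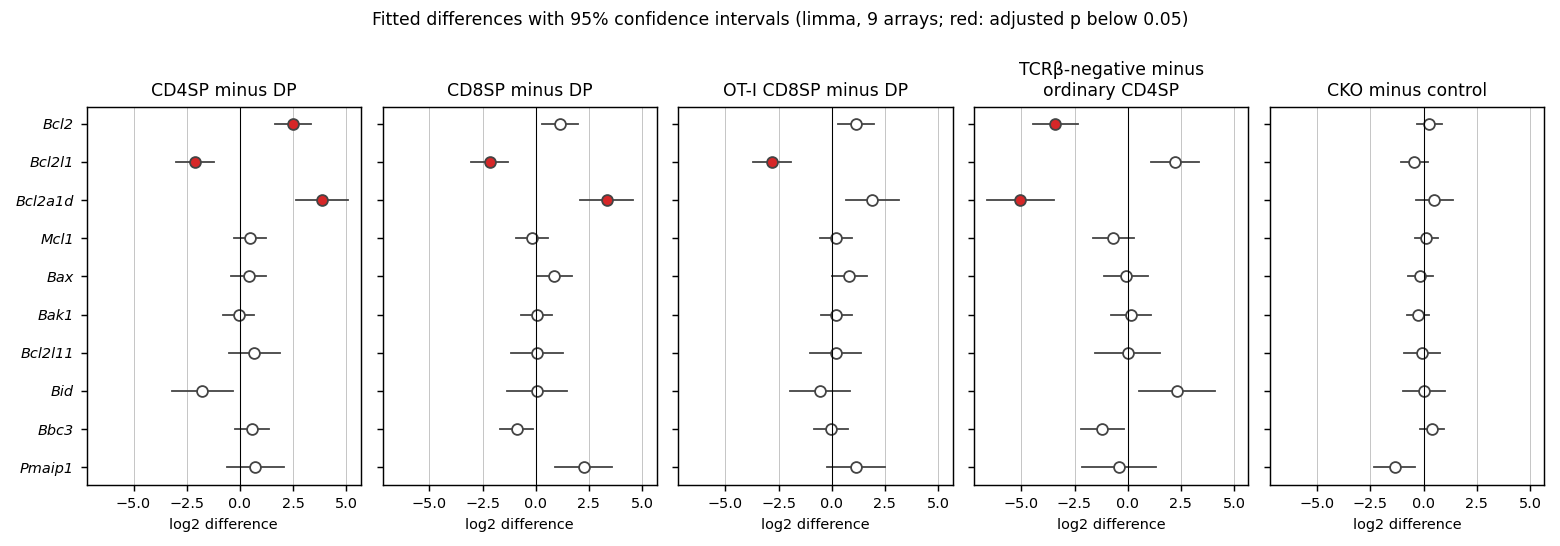
Fitted log2 differences of the 10 genes with 95% confidence intervals for 4 population contrasts and the genotype effect (limma, 9 arrays), filled in red where the adjusted p was below 0.05. Bcl2l1 was called lower in CD4SP, CD8SP and OT-I cells than in DP cells, Bcl2a1d was called higher in CD4SP and CD8SP cells, and no gene was called in the CKO minus control panel.

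No member was called for genotype, the CKO minus control difference averaged over the 4 populations with both genotypes (0 of 10, against 0.281% of all features). The 10 estimates had a median of -0.03, beside -0.04 over all features, and 5 of 10 were above 0. Pmaip1 had the largest, -1.36 (SE 0.39, 95% interval -2.31 to -0.40, adjusted p = 0.319), and was the only member with an unadjusted limma p below 0.05, a threshold that 2218 of the 20284 features passed. Its probe was not well above background on the DP and OT-I CKO arrays, and with normexp background correction the estimate was -0.48 (adjusted p = 0.303), smaller in size than that of Bcl2a1d there (0.54). Bcl2a1d had an estimate of 0.49 (SE 0.36, adjusted p = 0.611), Bcl2l1 one of -0.44 (SE 0.25, adjusted p = 0.556), Bbc3 one of 0.39 (SE 0.23, adjusted p = 0.556) and Bcl2 one of 0.27 (SE 0.24, adjusted p = 0.678). With the dimmer Bcl2l1 probe the estimate was 0.08, so the sign of that difference depends on the probe, and on slide 1 alone the Bcl2 estimate was -0.06 and that of Bcl2a1d -0.09. The Bcl2 interval, -0.33 to 0.86, leaves room for a difference of either sign.

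In single pairs of arrays, where no replicate exists and no test is possible, differences past 2-fold were counted. In DP cells, 2 of 10 members were past 2-fold, against 9.43% of features compared: Bcl2l11 was 1.13 higher in the CKO array, and Pmaip1 at least 2.75-fold lower, a bound because the CKO array was not well above background. In CD4SP cells, 2 of 10 were (9.67%), with Bid 1.13 higher and Pmaip1 lower by 2.40-fold. In CD8SP cells none was (16.8%), although Bbc3 (0.73) and Bcl2a1d (0.73) were higher and Bcl2l11 (-0.76) lower; the 2 arrays of this pair were on different slides.

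The OT-I pair had 4 of 10 members past 2-fold, against 22.4% of features compared. Bcl2a1d was 1.43 higher in the CKO array, Bcl2l1 1.19 lower (-1.19), Bid -1.11, and Pmaip1 at least 5.83-fold lower; Bcl2 was 0.94 higher, just within the limit. The Bcl2l1 difference depended on the probe and on scaling, at -0.36 with the dimmer probe and -0.85 under quantile normalization. Bid came within 2-fold under 3 alternatives, at -0.83 with scaling to detected probes, -0.88 under quantile normalization and -0.999 with normexp. Bcl2 passed 2-fold under the first and second of these, at 1.22 and 1.14. Mcl1, 0.60 higher in the CKO array, passed 2-fold under quantile normalization (1.03). In the same pair the summed DP-stage markers were at 9.17 in control and 6.38 in CKO, the summed proliferation markers at 8.73 and 5.15, and the mature-thymocyte markers at 7.89 and 9.31, with 7 of 8 DP-stage genes well above background in the CKO array. In the CD8SP pair the same lists were at 9.78 and 8.91, 8.47 and 7.17, and 8.04 and 9.41. The part of these stage markers in the member differences was not tested.

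Across the 4 pairs, 2 of 10 members differed in the same direction in all, Bcl2l1 and Pmaip1, both lower in the CKO, against 18.9% of features. Pmaip1 differences were -1.46 (a bound) in DP, -1.26 in CD4SP, -0.16 in CD8SP and -2.54 (a bound) in OT-I cells, and with normexp background correction, which lifts dim signals, they were -0.30 in DP, -0.59 in CD4SP and -0.94 in OT-I cells. Bcl2l1 differences were -0.05 in DP, -0.10 in CD4SP, -0.43 in CD8SP and -1.19 in OT-I cells. That shared direction holds on the brighter Bcl2l1 probe only: the dimmer probe was higher in the CKO array of the CD4SP pair (-1.47 and -0.84) and of the CD8SP pair (-1.41 and -1.06).

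**Figure D3:**
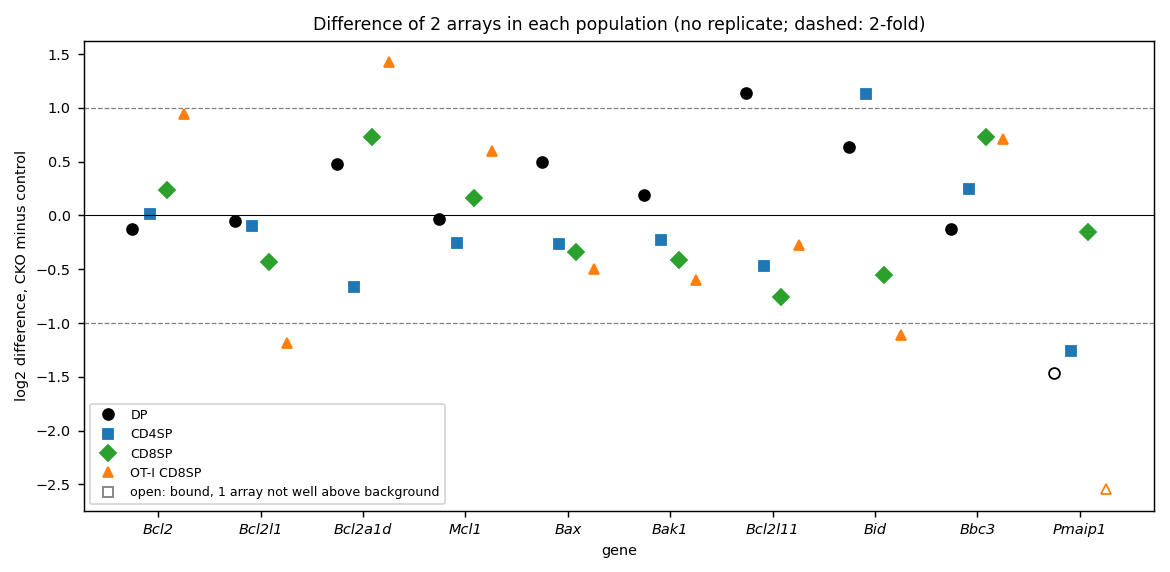
Log2 difference between the CKO and control array for each gene in 4 populations (y axis; dashed lines at 2-fold), with open symbols for bounds. Bid was higher in DP and CD4SP cells and lower in CD8SP and OT-I cells, and Pmaip1 was lower in all 4 pairs.

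The genotype difference in the 2 CD8 populations was also set against that in DP and CD4SP cells as an added term of the fit. None of the 10 members, and 0% of all features, was called by limma; 3053 features, and 1 member, had an unadjusted p below 0.05. That member was Bid, with an estimate of -1.71 (SE 0.40, adjusted p = 0.315): its pair differences were 0.63 in DP and 1.13 in CD4SP cells, and -0.56 in CD8SP and -1.11 in OT-I cells. The other 9 estimates lay between -0.85 (Bcl2l11) and 1.17 (Bcl2a1d). The split of the populations was chosen with these data known.

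Members with 2 probes or a near copy on the array were compared between those probes. Brighter and dimmer Bcl2l1 probes gave CD4SP minus DP estimates of -2.12 and -2.80 and CD8SP minus DP estimates of -2.17 and -2.88, the dimmer one with an adjusted p of 0.0220 and 0.0171. For Mcl1 the probes gave genotype estimates of 0.12 and 0.39, neither of which passed (adjusted p = 0.834 and 0.519). Bcl2a1c was called with Bcl2a1d in CD4SP minus DP (3.44, adjusted p = 0.0251) and CD8SP minus DP (2.89, adjusted p = 0.0351). Against ordinary CD4SP cells, Bcl2a1c in the TCRβ-negative array was at least 29.3-fold lower.

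**Figure D4:**
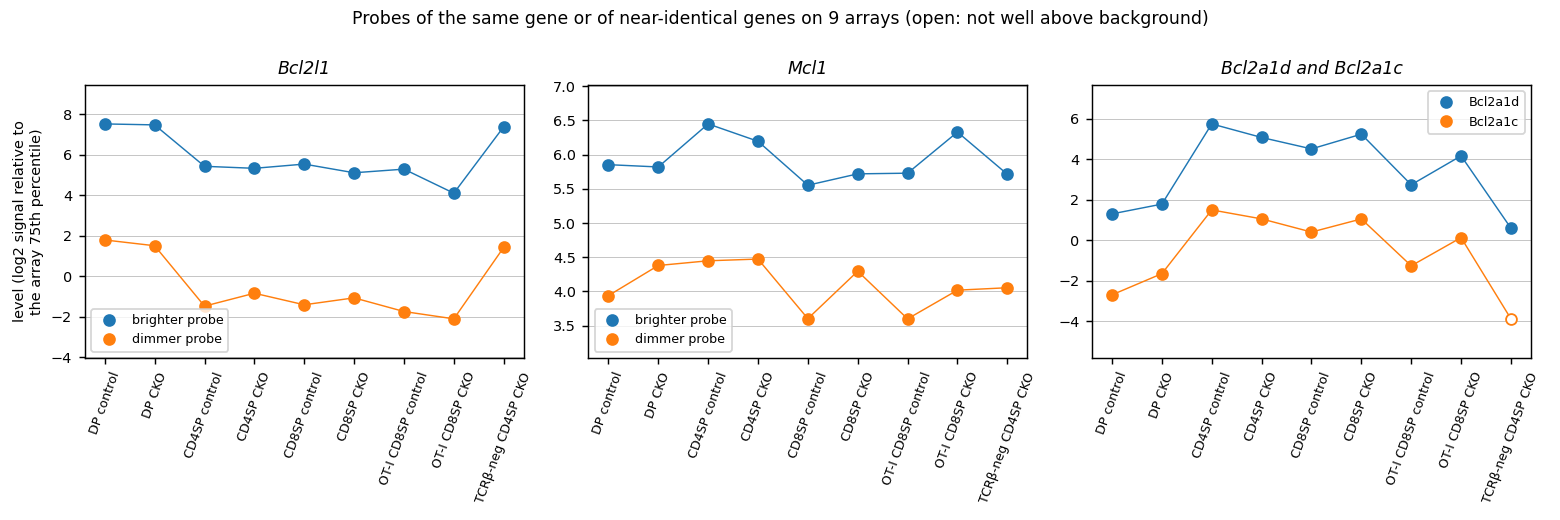
Level (log2 signal relative to the array 75th percentile) on each of the 9 arrays for the brighter and dimmer probes of Bcl2l1 and of Mcl1, and for Bcl2a1d beside its near copy Bcl2a1c; open points are not well above background. Both Bcl2l1 probes were highest in the 2 DP arrays and the TCRβ-negative array, and Bcl2a1d and Bcl2a1c were high and low on the same arrays.

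Of 17 other genes of the family, 11 were tested. In CD4SP against DP cells 1 was called higher, Bcl2a1c, and 1 lower, Bmf, a BH3-only gene (-3.47, SE 0.35, adjusted p = 0.0153). In CD8SP against DP cells Bcl2l14, a family member of less certain function, was called higher (3.22, SE 0.45, adjusted p = 0.0243) with Bcl2a1c, and Bmf lower (-2.34, SE 0.35, adjusted p = 0.0281). Bmf read 4.15 and 4.30 for DP, 0.18 and 1.32 for CD4SP, 1.63 and 2.13 for CD8SP, 2.49 and 3.63 for OT-I and 4.21 in TCRβ-negative cells. It was highest on the 2 DP arrays and the TCRβ-negative array and lowest for CD4SP. In 4 of 4 pairs Bmf was higher in the CKO array (genotype estimate 0.73, SE 0.25, limma adjusted p = 0.382). Of all features, 18.9% differed in the same direction in all 4 pairs. The shares of all features called were 3.11% for CD4SP and 3.46% for CD8SP against DP cells. For TCRβ-negative against ordinary CD4SP cells the share was 1.41%. In TCRβ-negative against ordinary CD4SP cells, Bmf was called higher (3.09, SE 0.44, adjusted p = 0.0424) and Bcl2a1c lower.

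All 16 genes of the apoptosome, the caspases and their inhibitors were tested. None was called in any population contrast, for genotype or in the added term. At most 3.46% of all features were called in any of these, so the absence of calls says little about this list. The largest genotype estimates in the list were those of Birc3, a caspase and NF-κB pathway regulator (0.80, SE 0.31, adjusted p = 0.436), and Cycs, cytochrome c (-0.67, SE 0.31, adjusted p = 0.495). Of 13 death receptor genes, Tnfrsf1b, a TNF receptor, was called higher than in DP cells in CD4SP (2.76, adjusted p = 0.0281), CD8SP (2.30, adjusted p = 0.0436) and OT-I cells (2.42, adjusted p = 0.0377), and Fas was called lower in OT-I than in DP cells (-1.88, adjusted p = 0.0419). Fas, the receptor that acts upstream of Bid, had a genotype estimate of -1.62 (SE 0.23, adjusted p = 0.0877) and read 3.83 and 2.70 for DP, 3.38 and 1.39 for CD4SP, 2.56 and 1.13 for CD8SP, 2.35 and 0.42 for OT-I and 2.52 in TCRβ-negative cells. Every CKO array with a control was below it for Fas, where 18.9% of features differed in the same direction in all 4 pairs. The test over all features did not pass. Its ligand Fasl, well above background on 6 arrays, had a genotype estimate of 1.60 (SE 0.61, adjusted p = 0.431).

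Of 22 regulators of the family, 21 were tested. Il7r, the interleukin-7 receptor that sustains Bcl2, was called higher in CD4SP (5.59, SE 0.75, adjusted p = 0.0249) and CD8SP cells (4.38, SE 0.75, adjusted p = 0.0415) than in DP cells. Nr4a3, an early gene of T cell receptor signals outside the naming rule and singled out after its values were seen, read -1.35 and -0.95 for CD4SP and was not well above background on the other 7 arrays. It entered the tests only through those CD4SP arrays, so its calls in CD4SP cells support nothing here. The largest genotype estimates in this list were those of Il7r (1.93, SE 0.53, adjusted p = 0.30) and E2f1, a cell-cycle transcription factor (-1.12, SE 0.41, adjusted p = 0.417). Of 15 protein-level partners, Pim2, a kinase that promotes survival, was called higher in OT-I than in DP cells (2.78, SE 0.46, adjusted p = 0.0370); for genotype Pim1 had -0.65 and Pim2 0.61 (adjusted p = 0.425 and 0.532). No gene of the 5 lists was called for genotype, against 0.281% of all features, so this says little about the lists. With slide as a block, no feature was called in CD8SP or OT-I cells against DP cells. The same held for TCRβ-negative against ordinary CD4SP cells. The calls of list genes in these contrasts were therefore lost in that fit.

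As a description over the same 9 arrays, which share the scaling and the 5 populations, Bcl2 and Bcl2a1d correlated with r = 0.93, and Bcl2 with Bcl2l1 at -0.76 and with Bid at -0.84; Mcl1 correlated with Bbc3 at 0.87 and with Bid at -0.92. Among 9802 named genes well above background on all arrays, the 3 whose pattern was most like Bcl2 were Icos, a T cell costimulator (r = 0.98), Gm4907 (0.97) and Zfp467 (0.97), and the least like it was Ankrd28 (-0.98). For Bcl2l1 they were Nyap1 (0.99), Ssbp2 (0.99) and Atl2 (0.98), and the least like it was Nod1 (-0.99). Without the 2 arrays farthest from the median of the member, these 8 correlations lay between 0.946 and 0.996 in size, with unchanged sign. The genes were picked as extremes on the same 9 arrays, so this does not show that the likeness to either member is robust. For Bcl2l1 the arrays left out were the 2 DP arrays. The TCRβ-negative array then remained as the only high one, so these values cannot show that the likeness is robust. Rank correlations (Spearman) with Bcl2l1 were 0.83 for Nyap1, 0.85 for Ssbp2, 0.87 for Atl2 and -0.92 for Nod1.

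Markers of other cells moved with some of these values. Myeloid markers (10 on the list, 9 on the array) had a summed log2 level of 5.47 in TCRβ-negative cells and of 5.67 to 7.25 elsewhere, with Lyz2 well above background on 3 arrays. Tyrobp, one of them, read 0.61 and 0.74 for DP, 3.97 and 1.61 for CD4SP, 4.13 and 5.54 for CD8SP, 2.33 and 2.88 for OT-I and 0.11 in TCRβ-negative cells. Bcl2a1d, which myeloid cells also express, was low in DP and TCRβ-negative cells too. Mpeg1, Itgax and Fcer1g were likewise lower for DP and in TCRβ-negative cells than for CD8SP. Mpeg1 read -0.68 and -0.50 for DP, 3.89 and 4.77 for CD8SP and -1.87 in TCRβ-negative cells. Itgax read -2.86 and -2.56, 1.38 and 2.58, and -4.16 in the same order. Fcer1g read -0.03 and 0.23, 1.94 and 2.83, and -0.27, but was also low for OT-I (-0.34 and -0.35). For CD4SP, Mpeg1 read 2.25 and 0.02, Itgax -0.40 and -0.87 and Fcer1g 2.51 and 1.38. All 9 myeloid markers tested had CD4SP minus DP estimates above 0 (median 1.72), and none was called. In TCRβ-negative against ordinary CD4SP cells, 0 of 9 had an estimate above 0 (median -2.43). For CD8SP, however, C1qa, C1qb and Lyz2 did not follow Tyrobp. C1qa read -4.81 and -4.37 for CD8SP, C1qb -1.93 and -3.75 and Lyz2 -4.60 and -3.53. Csf1r stayed between 3.6 and 4.7 and Itgam between 4.9 and 5.8 on the 9 arrays. Klrb1c and Klra8, receptors of NK cells, were well above background on 1 array each, the CD4SP control, whereas Nkg7 was so on 9 arrays and Klrd1 on 5. The summed level of the NK list was 2.94 in the DP control array, 6.87 and 7.63 for CD8SP and 8.57 in the OT-I CKO array. Of the granulocyte list of 7 genes, Ltf and Ngp were well above background on 0 arrays, and the summed level ranged from 2.19 to 3.93. S100a8 read 1.33 and -4.17 for DP, and S100a9 2.71 and -2.88 for DP and 1.44 and -1.35 for CD4SP. Of its 5 genes tested, 0 had a genotype estimate above 0 (median -0.99) and none was called. The part of other cells in the member values was not tested.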

How the data were processed

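RNA of 9 groups of sorted thymocytes was measured on 9 Agilent arrays, 1 per group. The deposited scanner files hold 1 processed intensity per spot, from which Agilent Feature Extraction 10.7.1.1 had, per the file headers, removed background and spatial trend without scaling arrays to each other. The deposited series table holds that intensity scaled to each array's 75th percentile. The labels name biotinylated cRNA and an Affymetrix protocol, whereas the scanner files are of Cy3 arrays. Replicate spots were averaged per probe; outlier flags removed 144 of 55681 probes; log2 was taken relative to the array's 75th percentile, and RefSeq accessions gave the symbols, with the brighter probe standing for a gene. Features well above background on at least 2 arrays (20284) entered a linear model in limma 3.58.1 (R 4.3.3; 3 residual degrees of freedom, prior 2.91; 2 and 2.86 with the added term), two-sided, with Benjamini-Hochberg adjustment over all features and calls at 0.05. A bound used, for the dim array, the lowest signal there that was well above background, or the own signal where higher. The number of arrays limits the precision. The script was tested on simulated data.

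The members, gene lists and tests were chosen with earlier results of these data known. The genes named were the 10 members, and per list the genes called for genotype, otherwise the 2 with the largest genotype estimates (well above background on at least 5 arrays), and the 2 with the largest called CD8SP minus DP estimates; genes called in the other contrasts were named after their values were seen. Alternatives were the scaling, background correction, source of values, probe choice, filter, variance prior, slide and left-out pairs of arrays; use of the dimmer probe was chosen after seeing the data.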

Additional observations from a re-analysis of the deposited data

How the results depend on the processing

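Population is a term of the genotype fit, which therefore already compares control and CKO arrays within each population; the replicate numbers, all the same, add no pairing. Among 13 alternatives for CD4SP minus DP, 11 kept the count of called members within 1.5 times of 3; 1 was called with slide as a block, and leaving out a pair of arrays gave 1 to 3. For CD8SP minus DP (2 called), the count was 1 with scaling to the probes detected on all 9 arrays, 1 under quantile normalization, 1 on the slide 1 arrays, 0 with slide as a block, and 1 to 3 when a pair was left out. For OT-I CD8SP minus DP (1 called) it was 0 with slide as a block. For TCRβ-negative minus ordinary CD4SP cells (2 called) it was 0 with scaling to detected probes, 0 under quantile normalization and 0 with slide as a block, and 0 to 2 when a pair was left out. With slide as a block, no feature at all was called for CD8SP minus DP or OT-I CD8SP minus DP. The same held for TCRβ-negative minus ordinary CD4SP cells. For CD8SP minus CD4SP (0 members called) the count was 1 on slide 1 alone. Genotype and the added term gave 0 under all 15 and 9 alternatives run. Members past 2-fold with normexp numbered 0 for DP, 1 for CD4SP and 2 for OT-I, and 1 in the DP pair with scaling to detected probes. No called value reversed. Where the slide took part, its cause was not tested. Pmaip1 on the DP and OT-I CKO arrays is limited by signal over background.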
